A study of Homo sapiens with 24 samples.

Results

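Inhibition of O-GlcNAcase for 6 h was examined in HEK293T cells, an established line of human embryonic kidney origin. The comparison sets 3 libraries of cells given TMG (Thiamet-G, an inhibitor of O-GlcNAcase) at 5 µM for 6 h against 3 libraries of cells given DMSO, the vehicle, for 6 h. These are 6 of the 24 libraries of the series. All cells received fresh medium before treatment. RNA was extracted with Trizol or an RNeasy kit, with no record of which was used for which library, and polyadenylated RNA was made into stranded libraries. Members were taken whole from 1 count table: 164219 bins, which are the pieces into which each gene model is cut. Of these, 159450 are exon bins and 4769 are detained introns, that is, introns that stay in polyadenylated nuclear transcripts. Exon bins were summed into 13236 gene groups, of which 154 merge neighbouring genes. Coordinates below are on hg19, the build in the submitters' processing notes, unless GRCh38 is named.

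O-GlcNAc is a single sugar that the transferase OGT attaches to serine and threonine residues of nuclear and cytosolic proteins and that O-GlcNAcase, listed here as MGEA5, removes. Cells are known to keep the modification within a range partly through the RNA of both enzymes, since OGT and MGEA5 each hold introns whose removal responds to the level of the sugar. Many splicing factors and transcription factors carry the modification.

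Library totals ran from 43042616 to 48382531 counts with DMSO and from 39465746 to 48487220 counts with TMG. Levels are given as CPM, a gene's count relative to the library size scaled by TMM factors. All 9 marker genes set for HEK293T had a row in the table. Their summed level was 589.2 to 637.3 CPM with DMSO and 518.6 to 538.3 CPM with TMG. Most of the DMSO sum came from VIM (343.8 to 391.8 CPM) and CDH2 (124.3 to 137.1 CPM). PAX2, LHX1 and NEFM were low, at no more than 1.617, 0.3199 and 0.7039 CPM with DMSO, so the sum says little about them. KRT18, VIM and INA passed the gene test below, all 3 lower with TMG. Of 14 markers of fibroblasts, blood, endothelium, hepatocytes and keratinocytes, 1 had a row, COL1A1, at 6.09 to 10.4 CPM with DMSO and 7.09 to 7.47 CPM with TMG. Libraries DMSO a and TMG b stood apart from the rest. In DMSO a, log2 gene levels relative to their mean over the 6 libraries rose with transcript GC content, by 0.142 per 10 percentage points. The other 5 libraries had slopes from -0.061 to -0.009 on the same relative scale, where a high slope in DMSO a lowers theirs. In TMG b, 651517 counts (1.65% of the library) lay in 1 bin, PRMT2_E009, which held 5744 to 17664 counts in each of the other 5 libraries. Nothing in the labels says whether the 3 libraries of a group were separate cultures, so the p-values below measure the spread between these libraries only.

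Both enzymes of O-GlcNAc cycling moved at the gene level, in opposite directions. MGEA5 was at 148.1, 160.1 and 166.2 CPM in the DMSO libraries and at 255.3, 264.9 and 259.8 CPM in the TMG libraries. OGT was at 224.3, 246.2 and 249.1 CPM with DMSO and at 160.2, 188.4 and 165.9 CPM with TMG. Neither gene's groups overlapped. MGEA5 rose by 0.72 on the log2 scale (SE 0.06) and OGT fell by 0.48 (SE 0.07), with edgeR quasi-likelihood adjusted p of 6.01e-06 and 0.00164 after Benjamini-Hochberg adjustment over all genes. In RNA from whole cultures, a lower level can come from fewer cells with the transcript or from less of it in each cell, and these cannot be told apart.

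Over all genes, 730 of 12103 tested genes passed an adjusted p of 0.05 (6.03%): 144 were higher with TMG (1.19%) and 586 were lower (4.84%). Most changes were small. The median absolute log2 fold change was 0.30 among the higher genes and 0.38 among the lower genes, and 155 of the 730 reached an absolute value of 0.5. The CPM of the 2 groups did not overlap in 27.7% of all tested genes. Leaving out TMG library b left 89 genes (12 higher, 77 lower), and leaving out DMSO library a gave 1248 (448 higher, 800 lower). The count was 263 without TMG library a, 190 without TMG library c and 454 without DMSO library b. The split between higher and lower depended on the scaling. TMM factors computed over genes only gave 231 higher and 464 lower, DESeq2 gave 407 and 608, and removal of the GC trend gave 772 and 883.

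The called genes differed in base composition. Median transcript GC was 41.6% for the higher genes, 55.8% for the lower genes and 48.6% for all tested genes. With the GC trend of each library removed, the medians were 51.8% for the higher and 49.9% for the lower genes. Without DMSO library a they were 48.7% and 51.7%. Genes that hold a detained intron made up 31.9% of the higher, 23.7% of the lower and 26.01% of all tested genes. After removal of the GC trend they made up 42.6% of the higher and 22.4% of the lower genes.

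Beyond the 2 cycling enzymes, the largest rises by the naming rule (mean count of at least 50, groups apart) included genes of several roles. ZFR, a zinc finger protein that binds double-stranded RNA, had the highest counts of them. It was at 203.6, 197.9 and 210.8 CPM with DMSO and at 307.5, 297.4 and 310.3 CPM with TMG, a rise of 0.58 (SE 0.05; edgeR adjusted p 2.61e-05). Its groups were far apart, and the call held without any single library. MROH6 went from 4.06 to 4.84 CPM up to 7.21 to 8.27 CPM, and the antisense RNA gene NR2F1-AS1 from 1.25 to 1.57 CPM up to 2.04 to 2.55 CPM. WNK4, a kinase that controls salt transporters, went from 2.81 to 3.65 CPM up to 4.85 to 6.35 CPM (log2 0.74, SE 0.14). CSAD, an enzyme of taurine synthesis, rose by 0.60 (SE 0.15), UBASH3B, a protein tyrosine phosphatase, by 0.56 (SE 0.13), PAQR6 by 0.55 (SE 0.16) and the KRAB zinc finger gene ZNF567 by 0.52 (SE 0.13). The edgeR adjusted p of WNK4 and these 4 genes ran from 0.00723 (WNK4) to 0.0463 (PAQR6), and each lost the threshold without TMG library b.

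The largest falls lay among genes with low counts. SLC46A3, a lysosomal membrane transporter, was at 5.52, 4.67 and 4.84 CPM with DMSO and at 2.55, 2.62 and 2.10 CPM with TMG. Every TMG library lay well below every DMSO library, a fall of 1.05 (SE 0.14; edgeR adjusted p 0.00143), and the call held without any single library. AKAP3, an anchoring protein of protein kinase A, was at 2.08 to 2.45 CPM with DMSO and at 0.81 to 1.31 CPM with TMG, and SNPH, syntaphilin, an anchor of axonal mitochondria, at 2.56 to 3.24 CPM and 1.16 to 1.65 CPM; both calls held without any single library. DISP2 was at 1.66 to 2.22 CPM with DMSO and at 0.57 to 1.13 CPM with TMG. CHST2, a sulfotransferase that modifies N-acetylglucosamine on secreted glycans, fell by 1.06 (SE 0.23). C2orf81 fell by 1.01 (SE 0.21), AGAP2, a GTPase-activating protein, by 0.91 (SE 0.21), KCNN2, a calcium-activated potassium channel, by 0.90 (SE 0.19), IGSF9 by 0.89 (SE 0.19) and RMI2, a subunit of the Bloom helicase complex, by 0.89 (SE 0.23). CHST2 and these 5 genes were at 1.44 to 3.46 CPM with DMSO and at 0.61 to 1.5 CPM with TMG, with edgeR adjusted p from 0.0104 to 0.0323, and each lost the threshold without at least 1 TMG library.

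**Figure D1:**
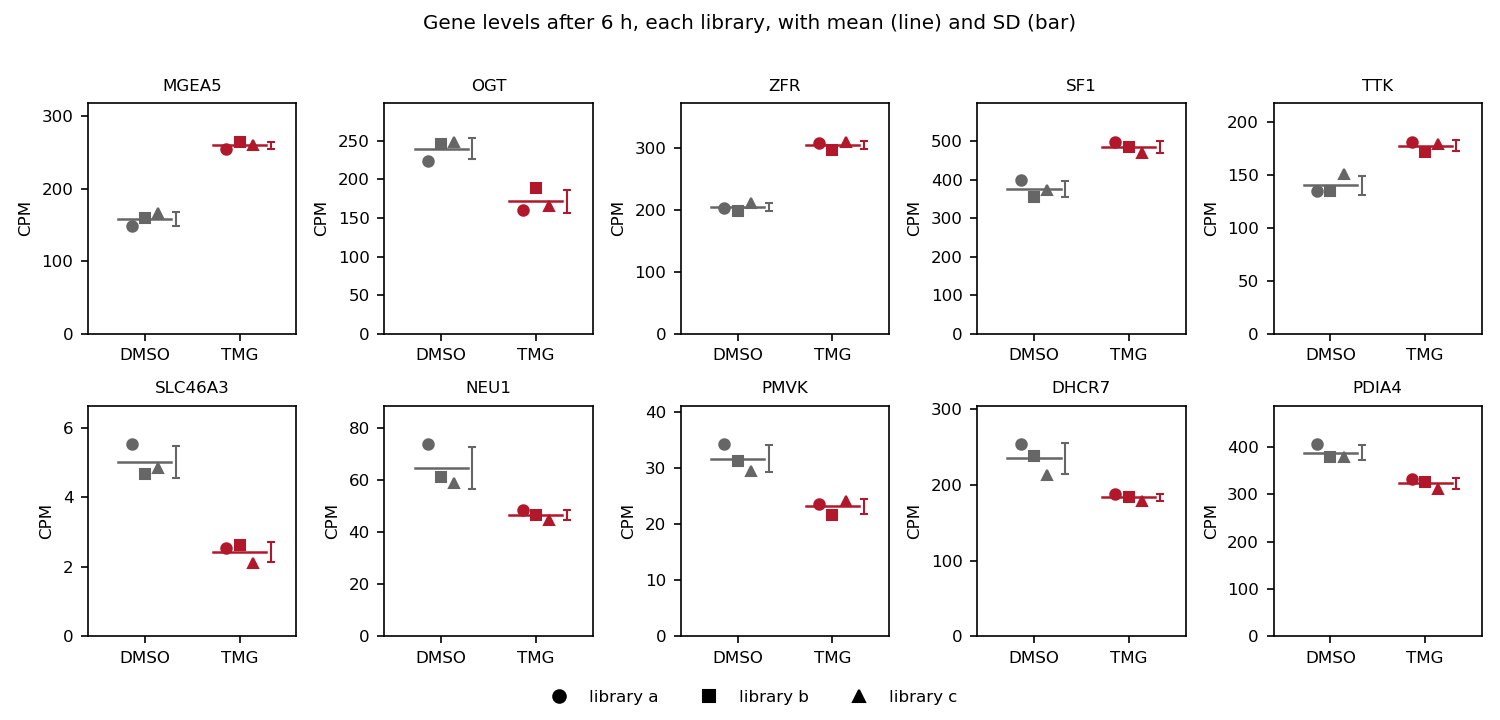
Level of 10 genes in each 6 h library in CPM (y axis, from 0), DMSO in grey and TMG in red; symbols mark the library letter, lines the mean and bars the SD. MGEA5, ZFR, SF1 and TTK are higher with TMG and the other 6 genes lower; groups that do not overlap were a condition for naming some of them.

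Genes of cholesterol synthesis fell as single steps spread along the pathway, while other members, among them the gene of its regulator, did not pass. Of 21 tested genes under SREBP2, the transcription factor that drives sterol synthesis, 7 were lower and 0 higher (all genes: 4.84% lower), with a list median of -0.10 against -0.03 for all genes. Early in the pathway, MVK, mevalonate kinase, fell by 0.35 (SE 0.09) and PMVK, phosphomevalonate kinase, by 0.45 (SE 0.08). PMVK was at 34.2, 31.3 and 29.5 CPM with DMSO and at 23.6, 21.6 and 24.2 CPM with TMG. SQLE, squalene epoxidase, fell by 0.21 (SE 0.06). Late in the pathway, DHCR7, which makes cholesterol from its last precursor, went from 253, 238 and 212 CPM to 187, 184 and 178 CPM, a fall of 0.36 (SE 0.06). HSD17B7 fell by 0.37 (SE 0.09) and TM7SF2, a sterol reductase, by 0.31 (SE 0.09). The edgeR adjusted p of these 6 genes ran from 0.00504 to 0.0427. HMGCS1, an early synthase of the pathway, had a log2 fold change of -0.03 and SREBF2, which encodes SREBP2, -0.05, neither past the threshold (adjusted p 0.831 and 0.703). The count of lower sterol genes was 8 after removal of the GC trend, 6 without DMSO library a, 4 without DMSO library b, 2 without TMG library c and 0 without TMG library b, where the list median was -0.09.

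In fatty acid synthesis, 2 of 10 tested genes were lower (4.84% of all genes) and 0 higher, with a list median of -0.10. With the GC trend removed, 2 of the 10 were higher and 3 lower, beside 772 and 883 of all 12103 genes. FADS1, the delta-5 desaturase of polyunsaturated fatty acids, was at 84.3, 85.0 and 84.1 CPM with DMSO and at 64.7, 65.8 and 64.4 CPM with TMG. Its libraries agreed closely within each group, and it fell by 0.38 (SE 0.06; edgeR adjusted p 0.00317), also without any single library. SREBF1, which encodes the transcription factor SREBP1, fell by 0.40 (SE 0.07; edgeR adjusted p 0.00620). FASN, fatty acid synthase, and SCD, stearoyl-CoA desaturase, had log2 fold changes of -0.17 and -0.13 and did not pass (adjusted p 0.221 and 0.207).

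Among 20 genes of the unfolded protein response of the endoplasmic reticulum, 4 were lower (4.84% of all genes) and 0 higher, with a list median of -0.07. At 2 h 13 of the 20 were lower, with a median of -0.20. PDIA4, a disulfide isomerase, was at 405, 379 and 379 CPM with DMSO and at 333, 327 and 310.2 CPM with TMG (log2 -0.26, SE 0.06). MANF and CRELD2, secreted proteins of the same stress response, fell by 0.29 (SE 0.06) and 0.27 (SE 0.08), and SDF2L1, a chaperone cofactor, by 0.41 (SE 0.11), with edgeR adjusted p from 0.0123 to 0.0448. HSPA5, the main chaperone of the compartment, had -0.07 and XBP1, a transcription factor of the response, -0.01, both short of the threshold (adjusted p 0.546 and 0.934). All 4 calls were lost without TMG library b and all 4 without TMG library c, and 4 genes of the list were lower without DMSO library a.

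Among enzymes that build glycans in the secretory pathway, the calls were all falls. Of 50 tested glycosyltransferases, 6 were lower (4.84% of all genes) and 0 higher, and the list median was -0.10. The 3 sialyltransferases among them, ST3GAL2, ST3GAL4 and ST3GAL5, fell by 0.44 (SE 0.09), 0.36 (SE 0.08) and 0.37 (SE 0.11). B4GALT7, which adds a galactose to the linker of proteoglycans, fell by 0.36 (SE 0.08), EXT2, which extends heparan sulfate, by 0.21 (SE 0.06), and GALNT10, which starts mucin-type O-glycans, by 0.28 (SE 0.07). EXT2, which had the highest counts of the 6, was at 156.8, 156.6 and 147.3 CPM with DMSO and at 133.2, 130.2 and 134.0 CPM with TMG. The edgeR adjusted p ran from 0.0124 to 0.0484. The count of lower glycosyltransferases was 11 without DMSO library a, and 0 without TMG library b and also without TMG library c.

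Single lysosomal, neuronal and DNA repair genes were also lower, beside 4.84% of all genes. Of 27 autophagy and lysosome genes, 3 were lower and 0 higher (median -0.11). NEU1, the lysosomal sialidase, went from 73.6, 61.0 and 58.9 CPM to 48.5, 46.5 and 44.5 CPM, a fall of 0.47 (SE 0.08; edgeR adjusted p 0.00404) that held without any single library. NPC1, which exports cholesterol from lysosomes, and CTSD, cathepsin D, fell by 0.26 (SE 0.06) and 0.27 (SE 0.07). Of 32 neuronal genes, which HEK293T cells are known to express in part, 5 were lower and 0 higher (median -0.13): KIF1A, an axonal motor, by 0.32 (SE 0.07), the neurofilament gene INA by 0.37 (SE 0.09), SYP, synaptophysin, by 0.30 (SE 0.08), BSN, bassoon, by 0.38 (SE 0.11) and CACNA1B, a presynaptic calcium channel, by 0.46 (SE 0.13). Of 49 DNA repair genes, 5 were lower and 0 higher, yet the list median was 0.03, so the falls were single genes. They were PALB2, the partner of BRCA2 (-0.38, SE 0.07), the glycosylase MUTYH (-0.45, SE 0.09), XPC (-0.26, SE 0.06), RAD50 (-0.26, SE 0.06) and PMS2 (-0.28, SE 0.08). Adjusted p (edgeR) in these 3 lists ran from 0.00404 to 0.0499. Without TMG library b the 3 lists had 1, 0 and 1 lower genes. With the GC trend removed they had 5, 3 and 4 higher and 5, 4 and 7 lower genes. Over all 12103 genes that run called 772 higher and 883 lower. Without DMSO library a the 3 lists had 4, 0 and 1 higher and 6, 7 and 7 lower genes.

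Other lists held 1 or 2 lower genes each, which for the larger of them is near or below the 4.84% of all genes. HMOX1, heme oxygenase, and ABCC1, an export pump, fell by 0.41 (SE 0.11) and 0.26 (SE 0.07) among 16 NRF2 targets. PFKFB4 and ENO2 fell by 0.48 (SE 0.13) and 0.36 (SE 0.10) among 24 genes of glucose use, HEY1 and NOTCH3 by 0.33 (SE 0.06) and 0.32 (SE 0.09) among 26 genes of Notch, Wnt and TGF-beta signalling, and ITGA3 and COL5A1 by 0.71 (SE 0.14) and 0.38 (SE 0.09) among 38 genes of adhesion and matrix. MRPL24 and MRPS26 fell by 0.35 (SE 0.07) and 0.40 (SE 0.11) among 67 mitochondrial ribosomal genes, and AARS, alanyl-tRNA synthetase, by 0.29 (SE 0.06) among 20 synthetases. Adjusted p (edgeR) of these genes ran from 0.00812 to 0.0448, and each lost the threshold without TMG library b. In the 6 fits without 1 library, the calls of HMOX1 and MRPS26 were lost in 5. Those of ABCC1, PFKFB4, ENO2 and NOTCH3 were lost in 4. HMOX1 also did not pass with DESeq2 or TMM over genes only, nor NOTCH3 with the GC trend removed or TMM over genes only.

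Outside the zinc finger genes, which are given below, the genes that rose within lists were few, beside 1.19% of all genes. SF1, the protein that first binds the intron branch point, was at 398, 356 and 374 CPM with DMSO and at 499, 486 and 470.3 CPM with TMG. It rose by 0.37 (SE 0.06; edgeR adjusted p 0.00317) and held without any single library. In the main fit it was the only call among 36 snRNP and branch-point proteins. With the GC trend removed, 12 of the 36 were higher and 0 lower, beside 772 higher of all 12103 genes. Without DMSO library a, 9 were higher and 0 lower, beside 448 higher genes in all. Of 23 LUC7-like and RBM regulators, 2 were higher, RBM39 (0.26, SE 0.05) and RBM26 (0.26, SE 0.07). Values were above 0 in 20 of 23, against 5206 of all 12103 genes, and the list median was 0.14. Both calls were lost without any one TMG library, that of RBM26 also without DMSO library b. The list had 10 higher genes with the GC trend removed and 7 without DMSO library a, and 0 lower in both. The CLK and SRPK kinases and TRA2 factors, which act on SR proteins, had no call, but all 8 tested members had values above 0, from 0.01 (SRPK2) to 0.25 (CLK1, adjusted p 0.0545), with a median of 0.14. In this list 4 genes passed without DMSO library a and 4 with DESeq2. The hnRNP family moved the other way in its 2 calls: HNRNPDL went from 348, 372 and 365 CPM to 299, 305 and 289 CPM, a fall of 0.28 (SE 0.05; edgeR adjusted p 0.00727), and HNRNPD from 646, 635 and 655 CPM to 565, 543 and 564 CPM, a fall of 0.21 (SE 0.06; edgeR adjusted p 0.0327). Of the other 23 hnRNP genes none passed, beside 4.84% of all genes lower, and the list median was 0.05. Without TMG library b, and also without TMG library c, the hnRNP list had no call. No SR factor (11 tested), decay factor (15) or snoRNA host (12) passed in edgeR, and DESeq2 called 3 SR factors higher.

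In mitosis 2 of 33 genes were higher (1.19% of all genes) and 0 lower. TTK, the spindle checkpoint kinase, was at 134.4, 134.9 and 150.4 CPM with DMSO and at 181.3, 171.7 and 178.9 CPM with TMG, a rise of 0.34 (SE 0.06; edgeR adjusted p 0.00539) that held without any single library. CCNA2, cyclin A2, rose by 0.19 (SE 0.05; edgeR adjusted p 0.0458), and 30 of the 33 genes had values above 0 (median 0.09). In DNA replication 1 of 36 passed, CDC6, a loader of the replicative helicase, with a rise of 0.26 (SE 0.06; edgeR adjusted p 0.0206), and 31 of 36 were above 0 (median 0.07). After removal of the GC trend 11 mitosis and 15 replication genes were higher, beside 772 of all 12103 genes, and without TMG library b 1 and 0. NUP54, a nuclear pore protein, SP1, a transcription factor that carries O-GlcNAc, and EIF3D, a translation initiation factor, rose by 0.21 (SE 0.06), 0.29 (SE 0.07) and 0.24 (SE 0.06), each the only call of its list of 26, 20 and 52 tested genes. With the GC trend removed these lists had 7, 6 and 6 higher and 1, 0 and 2 lower genes.

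Zinc finger genes went both ways. Of 375 tested, 16 were higher and 15 lower (1.19% and 4.84% of all genes), with a list median of 0.02. ZNF143, an activator of small nuclear RNA and many housekeeping genes, was at 27.1, 25.2 and 24.1 CPM with DMSO and at 35.4, 34.3 and 35.5 CPM with TMG, a rise of 0.46 (SE 0.07; edgeR adjusted p 0.00317). Its groups were apart, and the call held without any single library. ZNF256 went from 3.18, 3.86 and 3.48 CPM to 5.67, 5.88 and 6.05 CPM and ZNF227 rose by 0.45 (SE 0.08), whereas ZNF783 fell by 0.47 (SE 0.09), with edgeR adjusted p of 0.00317, 0.00679 and 0.00554. The calls of ZNF256 and ZNF783 held without any single library. The counts were 2 higher and 2 lower without TMG library b.

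Lists with no call in either direction covered much of the cell's basic machinery. None of 79 cytosolic ribosomal protein genes passed (median -0.01), nor did any of 72 respiratory chain genes (median -0.03), 33 proteasome genes (median 0.03), 46 DEAD and DEAH box helicases (median 0.00), 34 histone methylation enzymes (median 0.03), 20 ATF4 targets (median -0.01), 14 heat shock genes (median 0.02), 17 clock genes (median -0.02) and 13 hypoxia genes (median -0.07). Among 20 immediate early genes of the serum response the median was -0.18, the lowest of all lists, but none passed in edgeR. FOS was at a log2 fold change of -0.57 (edgeR adjusted p 0.169) and JUN at -0.44 (adjusted p 0.0741). The calls went the other way in some alternatives. Both with the GC trend removed and without DMSO library a, 3 of the 20 were higher and 0 lower. The list medians there were -0.11 and -0.10. DESeq2 called 1 higher and 0 lower. Over the 15 lists without a call, 61 of 408 members had an unadjusted p under 0.05, and DESeq2 called 16 higher and 2 lower. List medians within 0.03 of 0 changed sign in part with the scaling.

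**Figure D2:**
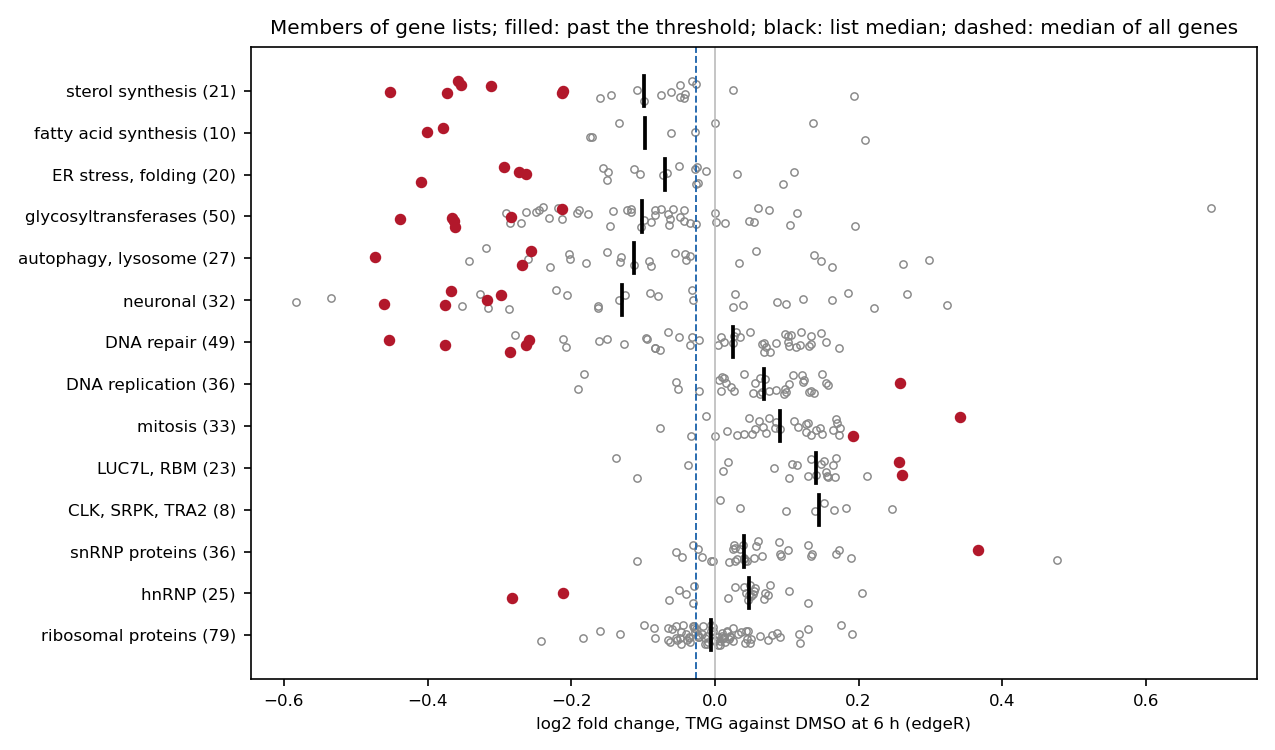
Log2 fold change (x axis) of every tested member of 14 gene lists (y axis, number tested in brackets). Filled red points passed the threshold, black bars are list medians and the dashed line is the median of all genes, -0.03; filled points lie left of 0 in the top 7 lists and, apart from the 2 hnRNP genes, right of 0 below them.

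Exon usage was tested as the change of a bin relative to its gene (edgeR diffSpliceDGE). Of 132769 bins, 33 passed (0.0249%), 25 with higher usage under TMG (0.0188%) and 8 with lower (0.00603%), and 2912 had an unadjusted p under 0.05. Without DMSO library b 52 passed. Shares below are percentages of the counts in the exon bins of the gene. The bins that passed lay in 25 genes that included both cycling enzymes, 2 hnRNP genes, a tyrosine kinase, an RNA helicase and a histone chaperone.

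A pair of mutually exclusive exons in FYN, a Src-family tyrosine kinase, shifted, and their sequences are shown because the 2 exons replace each other in the protein, in the linker before the kinase domain and the start of that domain. FYN_E007 (chromosome 6, 112020718 to 112020873) has 156 bases and FYN_E008 has 165. The GENCODE v29 annotation holds coding exons of these widths between neighbours of 150 and 180 bases, as in the table: FYN-204 exon 8 (GRCh38 chr6:111699515-111699670, minus strand) and FYN-202 exon 9 (GRCh38 chr6:111700104-111700268, minus strand). Written 5′ to 3′ on the transcribed strand, with capitals for bases that differ or are unpaired in a global alignment of the pair, they share 94 bases:
FYN_E007: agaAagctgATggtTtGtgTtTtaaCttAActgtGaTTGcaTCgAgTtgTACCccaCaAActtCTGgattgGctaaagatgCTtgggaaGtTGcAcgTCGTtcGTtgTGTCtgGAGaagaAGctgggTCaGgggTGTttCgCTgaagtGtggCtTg
FYN_E008: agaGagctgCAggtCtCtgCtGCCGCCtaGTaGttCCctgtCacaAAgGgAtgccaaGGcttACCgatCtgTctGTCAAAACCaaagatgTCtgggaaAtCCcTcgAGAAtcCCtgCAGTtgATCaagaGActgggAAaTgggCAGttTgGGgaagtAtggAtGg

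The shorter exon gained and the longer one held lower shares. FYN_E007 made up 2.88%, 2.61% and 2.55% of FYN counts in the DMSO libraries and 4.38%, 3.91% and 5.27% in the TMG libraries, and FYN_E008 made up 5.97%, 6.28% and 6.23% with DMSO and 4.76%, 5.30% and 5.17% with TMG. Neither exon's groups overlapped. Relative to the gene, FYN_E007 rose by 0.73 (SE 0.12; edgeR adjusted p 0.00298), while FYN_E008 had -0.31 (SE 0.10) and did not pass. The detained intron downstream of the shorter exon, FYN_E006, went from 22, 35 and 25 counts to 64, 51 and 61 counts, a usage rise of 1.14 (SE 0.17; edgeR adjusted p 8.82e-04). FYN as a whole had a log2 fold change of -0.02 (adjusted p 0.896). The FYN_E007 call was lost without TMG library c (adjusted p 0.763), with a value of 0.61, and the FYN_E006 call without DMSO library a (adjusted p 0.0576).

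In the 2 cycling enzymes, exon bins next to detained introns rose together with the introns. OGT_E006, a cassette exon of 153 bases (chromosome X, 70766194 to 70766346) between the detained introns OGT_E005 and OGT_E007, went from 0.70%, 1.11% and 0.91% of OGT counts to 2.79%, 2.97% and 2.56%. The lowest TMG library was above the highest DMSO library by more than 2 times, and usage rose by 1.43 (SE 0.14; edgeR adjusted p 4.17e-13). The introns on its sides went from 3.56% to 5.25% up to 11.5% to 12.1% (OGT_E005) and from 4.05% to 4.58% up to 11.2% to 11.3% (OGT_E007). The flanking exon OGT_E008 had -0.26 and OGT_E004 -0.52, neither past the threshold in edgeR. In the authors' deposited usage test OGT_E004 was lower (log2 -0.43, adjusted p 2.1e-04). Its share was 2.22%, 2.26% and 2.15% with DMSO and 1.86%, 1.70% and 1.68% with TMG. MGEA5_E009 (chromosome 10, 103555131 to 103555728), which adjoins the detained intron MGEA5_E008, went from 0.52%, 0.86% and 0.57% to 1.44%, 1.94% and 1.63%, a rise of 1.32 (SE 0.16; edgeR adjusted p 1.84e-08). The calls of OGT_E006 and MGEA5_E009 held under every alternative run.

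HNRNPD and HNRNPDL, whose total level fell, each gained an internal bin. HNRNPD encodes AUF1, which binds AU-rich elements, and HNRNPDL is its close relative. HNRNPD_E003, 107 bases at chromosome 4, 83276048 to 83276154, went from 0.69%, 0.80% and 0.68% of HNRNPD counts to 1.61%, 1.65% and 1.41%. The share about doubled in every TMG library, with a usage rise of 1.11 (SE 0.10; edgeR adjusted p 9.47e-13) that held under every alternative. An exon of 107 bases after a neighbour of 98 bases occurs in 1 GENCODE v29 transcript of the gene, HNRNPD-211, which is annotated as a target of nonsense-mediated decay. HNRNPDL_E004 went from 1.33%, 1.99% and 2.00% to 2.43%, 3.05% and 2.23%, a rise of 0.53 (SE 0.10; edgeR adjusted p 0.0152); DMSO library a was lowest, and the limma ratio test did not call it (adjusted p 0.348).

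A stretch of 4 neighbouring bins in DDX46, an RNA helicase of the U2 snRNP, rose together. The exon bins DDX46_E016 (49 bases) and DDX46_E017 (117 bases) lie between the detained introns DDX46_E015 and DDX46_E018. DDX46_E017 had 22, 20 and 23 counts with DMSO and 48, 38 and 52 with TMG, and DDX46_E016 had 10, 13 and 12 against 24, 34 and 21. Groups were apart in all 4 bins, which rose by 1.15 to 1.37 relative to the gene (edgeR adjusted p from 5.69e-04 to 0.0355). The exons on either side, DDX46_E014 and DDX46_E019, had -0.06 and -0.04. DDX46_E017 matches an exon of DDX46-207, a GENCODE v29 transcript annotated as a decay target, by its width and those of its neighbours. The limma ratio test called DDX46_E017 (adjusted p 0.0244) and not the other 3 bins. In the 6 fits without 1 library, the usage call of DDX46_E015 was lost in 3 and that of DDX46_E018 in 4. Neither intron passed as a level (edgeR adjusted p 0.112 and 0.23).

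NASP, a chaperone of linker and core histones, had lower usage of its long exon. NASP_E007, 1017 bases at chromosome 1, 46072993 to 46074009, is the exon that distinguishes the long, testis-type form from the somatic form. It went from 7.08%, 7.79% and 7.18% of NASP counts to 5.56%, 5.79% and 5.46%, a fall of 0.39 (SE 0.06; edgeR adjusted p 0.00602), and the bins before and after it had 0.07 and 0.09. The limma ratio test called it too (adjusted p 3.94e-04), but the edgeR call was lost without DMSO library b and without any one of the 3 TMG libraries (adjusted p up to 0.477).

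At the 3′ end of RPL23, a ribosomal protein gene, 2 bins moved in opposite directions. The terminal bin RPL23_E001 (177 bases) went from 0.10%, 0.16% and 0.13% to 0.33%, 0.34% and 0.29% of RPL23 counts, and the alternative last exon RPL23_E002 (46 bases) from 1.34%, 1.5% and 1.47% to 0.99%, 0.90% and 0.79%. Usage rose by 1.32 (SE 0.15) and fell by 0.68 (SE 0.09), with edgeR adjusted p of 5.16e-08 and 5.31e-06, under every alternative run. At 2 h the same bins had -0.81 and 0.53, the opposite signs, and did not pass (adjusted p 0.424 and 0.408). ABCC5_E031, an alternative last exon of an export pump, rose from 3.05%, 3.98% and 3.76% to 5.48%, 6.39% and 4.84% (0.63, SE 0.10; edgeR adjusted p 5.69e-04), and without TMG library b its adjusted p was 0.359.

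**Figure D3:**
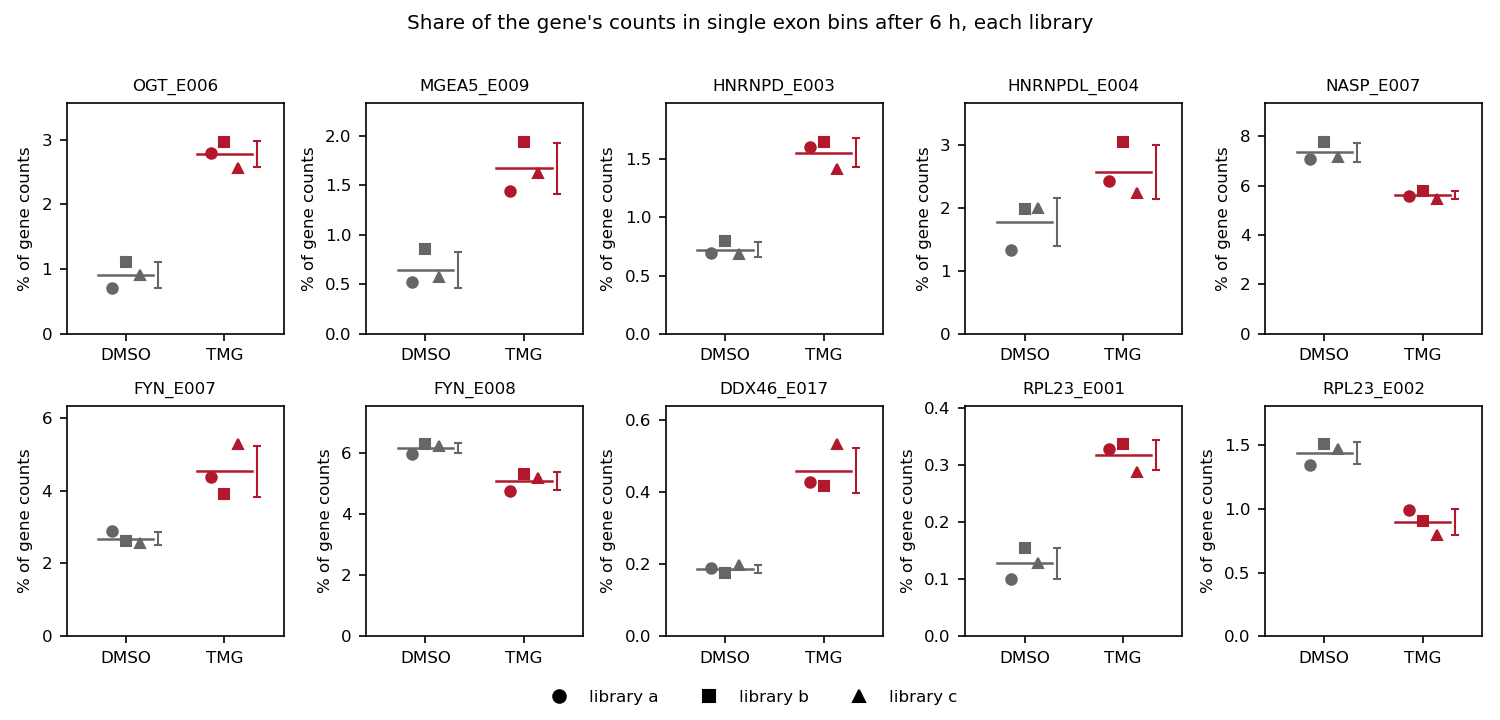
Share of the gene's exon counts in 10 exon bins in each 6 h library (y axis in percent, from 0), DMSO in grey and TMG in red; symbols mark the library letter, lines the mean and bars the SD. FYN_E007 and FYN_E008 move in opposite directions, as do RPL23_E001 and RPL23_E002. The groups are apart in all 10 bins, which was a condition for naming most of them. The share of all tested bins with groups apart was not counted.

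Other calls rested on uneven libraries. DNAJB6_E002 made up 0.35%, 0.58% and 2.61% with DMSO and 2.93% to 4.14% with TMG, and ASPH_E028 made up 0.01%, 1.02% and 0.04% with DMSO and 1.05% to 1.13% with TMG, so 1 DMSO library of each lay near the TMG range. Neither passed the limma ratio test (adjusted p 0.139 and 0.367). S100B_E007 had 282 counts in TMG library b and 11 to 39 in each of the other 5 libraries; it overlaps PRMT2_E009 on the map, and its groups overlapped. The first-exon bins EIF3B_E001 and CRTAP_E001 had lower usage (-1.11, SE 0.20, and -0.50, SE 0.10), with DMSO library a highest in both. Without DMSO library a their values were -0.71 and -0.31 with adjusted p of 1.0 and 0.722, and the CRTAP_E001 call held only without DMSO library c.

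Of 4219 detained introns, 8 passed as levels (0.19%), with 7 up (0.166%) and 1 down (0.0237%). At an unadjusted p under 0.05 there were 331, and DESeq2 called 4. Leaving out DMSO library b gave 332 (322 higher) and leaving out DMSO library a gave 13. Of the 7 higher introns, 3 were uneven across the TMG libraries. DDB1_E004 had 40, 309 and 26 counts with TMG against 21 to 28 with DMSO, and NUDT5_E006 had 111, 75 and 448 against 70 to 88. The first lost its call without TMG library b and the second without TMG library c, and both had groups that overlapped. ANKRD17_E009 had 31, 116 and 133 counts with TMG, of which the first lies within the DMSO range of 18 to 36. The level call of FYN_E006 was lost in 5 of the 6 fits without 1 library (edgeR adjusted p up to 0.294) and with DESeq2. That of OGT_E005 was lost without TMG library b (edgeR adjusted p 0.0589). In usage relative to the gene 11 detained introns passed, 10 higher and 1 lower. ERCC3_E016, in the gene of a DNA helicase of transcription factor TFIIH, passed in usage only, with 57, 83 and 61 counts under DMSO and 156, 125 and 81 under TMG (0.85, SE 0.15; edgeR adjusted p 0.00177). TMG library c lay below the highest DMSO library. SPTAN1_E025, in the gene of a spectrin chain, also passed in usage only, with 57, 73 and 60 counts against 103, 124 and 91 (0.81, SE 0.12; edgeR adjusted p 0.00339). Its groups were apart, as were those of 12.9% of all tested introns in CPM. Both usage calls were lost without DMSO library a and without TMG library b, that of ERCC3_E016 also without DMSO library c and without TMG library a. The limma ratio test called neither ERCC3_E016 nor SPTAN1_E025 (adjusted p 0.302 and 0.147). Neither passed in the authors' deposited usage test (adjusted p 0.619 and 0.16).

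By class, detained introns shifted most and first exons went the other way, and both shifts moved with single libraries. Of 4213 detained introns tested for usage, 498 had an unadjusted p under 0.05, 473 of them higher, with a class median of 0.15. Without DMSO library b there were 1131, 1121 of them higher (median 0.32), and without DMSO library a there were 244, 171 of them higher (median 0.03). DMSO library b had the highest share of counts in detained introns (0.669%), DMSO library a the lowest (0.462%), and TMG libraries had 0.580% to 0.668%. The difference in mean share was 0.0682 percentage points, with an exact two-sided permutation p of 0.5, where 3 against 3 libraries cannot give less than 0.1. Of 3715 constitutive first exons, 272 had an unadjusted p under 0.05 and 17 of these were higher (median -0.07), while without DMSO library a there were 147, 56 of them higher (median 0.00). For alternative first exons the median was -0.04 and, without DMSO library a, 0.01. Cassette exons, mutually exclusive exons and alternative 3′ splice sites had medians between -0.01 and 0.00.

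**Figure D4:**
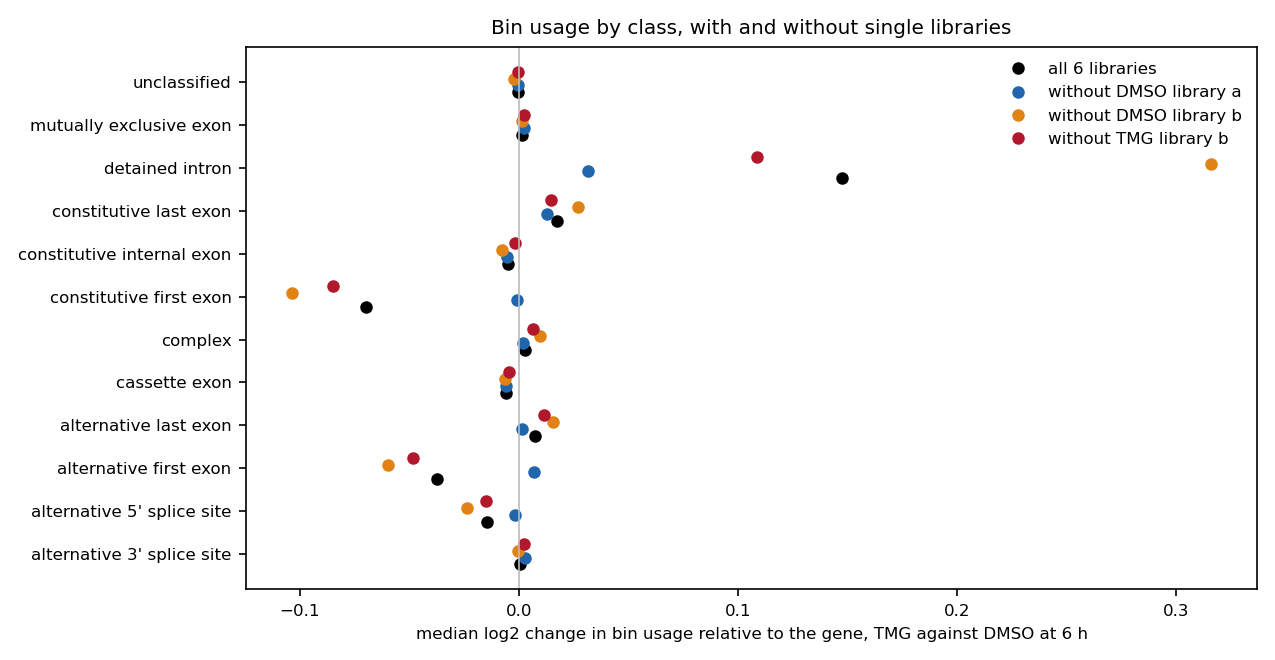
Median log2 change in bin usage relative to the gene (x axis) for each of 12 bin classes (y axis), from all 6 libraries and without DMSO library a, DMSO library b or TMG library b. Detained introns range from 0.03 without DMSO library a to 0.32 without DMSO library b, and constitutive first exons from -0.10 to 0.00.

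The 2 h libraries of the same experiment, which have DMSO controls of their own, give the earlier state, with 978 of 12361 genes called (7.91%). Of the 144 genes higher at 6 h, 20 were also called higher at 2 h (13.9% of the 6 h list, 13.0% of the 154 at 2 h), and of the 586 lower genes, 173 were called lower at 2 h (29.5% of the 6 h list, 21.0% of the 824 at 2 h). The 6 h calls had median log2 fold changes at 2 h of 0.12 for the higher and -0.17 for the lower genes, against 0.30 and -0.38 at 6 h. In usage, 189 bins passed at 2 h and 6 of them also passed at 6 h in the same direction (18.2% of the 33). These 6 were MGEA5_E008, MGEA5_E009, DDX46_E017, ABCC5_E031, IFT172_E034 and DDB1_E004, the last of which at 6 h rested on TMG library b (usage adjusted p 1.0 without it). The fall of OGT was not seen at 2 h, where its log2 fold change was -0.04 (edgeR adjusted p 0.708), and its test of the difference between times gave an adjusted p of 0.147. SF1 had 0.01 at 2 h (adjusted p 0.893) and FADS1 -0.12 (adjusted p 0.154), while PDIA4 had -0.32 at 2 h (edgeR adjusted p 6.47e-04) and DHCR7 -0.25 (edgeR adjusted p 0.00417). In a fit of the 12 libraries of both times, the effect differed between 6 h and 2 h in 3 of 12399 genes (0.0242%) and 3 of 4388 detained introns (0.0684%).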

How the data were processed

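Counts per bin were deposited by the authors as whole numbers, per the file headers, in a table with the columns of a DEXSeq result. Each row also carries a deposited p-value, its adjusted form and a log2 ratio between treatments, which the authors made and which served as 1 alternative. The submitters' processing notes name STAR and hg19. The counter and its strand setting are not given in the sources used here, so overlapping and antisense genes, and near-identical paralogs, may share reads.

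Exon bins were summed per gene, and detained introns kept apart. Library size was the table total times a TMM factor over genes and introns. Genes, introns and the differences between 6 h and 2 h were tested with edgeR 4.0.16 (quasi-likelihood, filterByExpr), and bin usage with diffSpliceDGE, at a Benjamini-Hochberg adjusted p of 0.05. A ratio test used limma 3.58.1 on log2((bin + 1)/(rest of gene + 1)). GC content came from GRCh38 transcripts for 96.2% of genes. The tests were run on simulated counts with known changes and a fixed spread, so recovery in the real libraries can differ. Of 100 genes changed by 0.4 on the log2 scale 36 were recovered, and of 100 changed by 0.8, 93, with 3 false calls. The usage test recovered 72 of 100 bins changed by 0.8 and 91 of 100 changed by 1.5, with 14 false calls. Changes of the size of most gene calls here can thus be missed. Count columns carry letters and no replicate numbers.

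The comparison, the gene lists and the tests were chosen with earlier results of these data known. Named were OGT and MGEA5, the 10 largest rises and falls with a mean count of at least 50 and groups apart, the called members of lists with the smallest p (at least 4 where a list had them, more in some short lists), the 8 largest usage changes each way by the same limits, and every called detained intron. Other called exon bins, among them HNRNPDL_E004, DDX46_E016 and DDX46_E017, were named outside these limits. Members named with values short of the threshold were chosen for their role. Alternatives were DESeq2 1.42.0, other scalings, no filter, removal of the GC trend, all 12 libraries in 1 fit, a block by letter and leaving out each library. A genome of the build of the tables was not used here, and a few members of the lists are not reported here.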

Additional observations from a re-analysis of the deposited data

Results flagged for a closer look

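The effect of TMG differed between 6 h and 2 h in 6 features, by edgeR's test of the difference itself (adjusted p under 0.05 over all genes or all introns). The rise of MGEA5 was larger at 6 h by 0.60 on the log2 scale (SE 0.08; edgeR adjusted p 4.87e-04), with 0.72 at 6 h and 0.14 at 2 h, and this difference passed without any single 6 h library. ZFR rose more at 6 h by 0.44 (SE 0.07; edgeR adjusted p 0.00816), with 0.58 against 0.16, and lost the threshold without TMG library c (adjusted p 0.0601). ANKRD26, a gene of the base of the primary cilium, had a difference of -0.71 (SE 0.13; edgeR adjusted p 0.0285): it fell by 0.52 at 6 h and had 0.21 at 2 h, and the difference was called without DMSO library a but not without any one of the other 5 libraries of 6 h.

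Among detained introns, MGEA5_E008 rose more at 6 h by 1.13 (SE 0.22; edgeR adjusted p 0.0101), with 2.33 against 1.21, though not without TMG library b or TMG library c (adjusted p up to 0.0891). ANKRD17_E009 differed by 2.74 (SE 0.55; edgeR adjusted p 0.0101), with 1.95 at 6 h and -0.79 at 2 h, and lost the call without TMG library b or c. IMMT_E005 differed by -2.35 (SE 0.47; edgeR adjusted p 0.0101), with -2.05 at 6 h and 0.31 at 2 h; it lost the call without DMSO library c, which had 217 counts against 92 and 105 in the other DMSO libraries, and without TMG library b or c.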

How the results depend on the processing

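The 730 called genes became 1307 with all 12 libraries in 1 fit (292 higher, 1015 lower), 1655 after removal of the GC trend, 1363 with the replicate block and 155 where the log2 change also had to reach 0.5 in size; dropping 1 library gave 89 (TMG b) to 1248 (DMSO a). DESeq2, TMM over genes only, median-of-ratios factors and no filter gave 688 to 1015. Detained introns (8) became 4 with DESeq2, 14 with TMM over introns alone (7 higher, 7 lower) and 30 with the replicate block, and between 6 and 332 (the latter without DMSO b) when 1 library was dropped. Bins past the usage threshold (33) were 57 by the adjusted p of the authors' deposited table (33 higher, 24 lower, 11 shared with the edgeR calls) and 25 (DMSO a dropped) to 52 (DMSO b dropped). Differences between 6 h and 2 h ran from 1 to 69 genes and from 0 to 7 introns on leaving out 1 library, and 10 introns passed with TMM over introns alone. The replicate block uses the column letters as pairs, and it gave 42 bins. Deviations of log CPM from the group mean correlated between same-letter libraries at 0.137, 0.027 and 0.175 over 10914 genes. Between libraries of different letters these correlations ran from -0.181 to 0.057. Not all same-letter values were above 0.1, the limit set, so the letters were not taken to pair samples. The labels do not tell whether they do. Of 105 genes (those of the naming rule and every called list member, some not printed above), none changed sign under any alternative and 15 kept their call under all; 88 lost it without TMG library b, 72 without c, 56 without a, 36 without DMSO library b, 32 without DMSO library c and 4 without DMSO library a. The fits with 1 library fewer have fewer samples, and the cause of the differences among them was not tested. TMM over genes only moved the median of all genes from -0.03 to 0.00. Bins under about 50 counts, such as those of DDX46, are limited by depth.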

Other observations

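The genes below lie outside the fixed lists and were picked from the called genes after their values were seen. How many genes of like function were tested was not counted, so the values describe single genes and no group. SERPINH1, the collagen chaperone HSP47, was at 84.7, 75.9 and 69.8 CPM with DMSO and at 55.9, 59.6 and 55.1 CPM with TMG, a fall of 0.43 (SE 0.07; edgeR adjusted p 0.00404). The lysyl hydroxylases PLOD1 and PLOD3 fell by 0.35 (SE 0.07) and 0.40 (SE 0.08), and CRTAP and LEPREL4, which belong to prolyl and lysyl hydroxylation complexes, by 0.31 (SE 0.06) and 0.40 (SE 0.07). DMSO library a had the highest level of the DMSO libraries in all 5. SMPD1, acid sphingomyelinase, fell by 0.57 (SE 0.10), CTNS, the cystine exporter, by 0.45 (SE 0.07), FUCA1, a fucosidase, by 0.37 (SE 0.07) and SIAE, a sialic acid esterase, by 0.48 (SE 0.08), with edgeR adjusted p from 0.00254 to 0.00604. BBS2 and IFT27, genes of ciliary transport, fell by 0.39 (SE 0.07) and 0.38 (SE 0.08) at 6 h and had -0.05 and -0.04 at 2 h; the difference between times did not pass for either.

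GABPA and GABPB1, the 2 subunits of GABP, rose by 0.43 (SE 0.08) and 0.41 (SE 0.09), NFYB, a CCAAT-binding subunit, by 0.37 (SE 0.07), SP2 by 0.46 (SE 0.12) and POU2F1 by 0.50 (SE 0.09), with edgeR adjusted p from 0.00539 to 0.0278. NFYB was at 36.1, 39.9 and 39.0 CPM with DMSO and at 49.7, 49.7 and 49.6 CPM with TMG. CCAR1 rose by 0.35 (SE 0.06), SMNDC1, a splicing factor of the survival motor neuron family, by 0.30 (SE 0.06), RBM48 by 0.43 (SE 0.09), SREK1 by 0.25 (SE 0.06) and its partner SREK1IP1 by 0.27 (SE 0.07). PLK4, the kinase of centriole duplication, rose by 0.41 (SE 0.07), the centromere genes MLF1IP and CENPQ by 0.33 (SE 0.06) and 0.35 (SE 0.08), and WEE1, a kinase that delays mitosis, by 0.27 (SE 0.06). PRMT2 was called higher only through TMG library b, where 1 bin held nearly all its counts, and its groups overlapped. SLIT2_E012, a cassette exon of 143 bases with 10.2 counts on average, made up 0.20%, 0.19% and 0.20% of SLIT2 counts with DMSO and 0.01%, 0.02% and 0.00% with TMG.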
